A study of Mus musculus with 8 samples.

Results

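The 8 genes described here encode large proteins that tie cells to the basement membrane or tie the sheets of the basement membrane to each other: Frem1, Frem2, Fras1, Svep1, Nid1, Nid2, Hspg2 and Npnt. They were found by gene symbol, and each matched 1 row of the 55385 genes in the count table. All 8 were among the 15314 genes that passed the filter on low counts. The members were chosen from the measured difference between Mst1-TG and WT libraries, in which some of them were already known to stand out. Their own differences are therefore a description, given without a p-value, and support nothing by themselves.

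The data are RNA-seq estimated counts from the left ventricle of male mice of the C57BL6 strain, with 4 Mst1-TG libraries from transgenic animals labelled as experimental dilated cardiomyopathy and 4 WT libraries from littermates without the transgene, labelled control. The transgene expresses Mst1, a Hippo pathway kinase, under control of the cardiac alpha-MHC promoter, active in cardiomyocytes, so fibroblasts, vessels and other cells of the ventricle carry the DNA but are not meant to express the kinase. The design text gives an age of 3 weeks, whereas the extraction protocol names 3 months. Libraries held 21435063 to 22355197 counts in Mst1-TG and 21193536 to 23809256 in WT. Stk4, the mouse gene for the Mst1 kinase, was at 1608 ± 130.3 CPM in Mst1-TG and 27.2 ± 1.88 CPM in WT (SD, n = 4 each; CPM are counts scaled to library size), in the direction of the labels. Mitochondrially encoded genes took 12.9% to 14.4% of counts in Mst1-TG and 21.4% to 23.8% in WT, and WT 4 was separated from WT 1, 2 and 3 along the second principal component (8.89% of variance). Cardiomyocyte genes were the most abundant of the cell type markers in all libraries. Of the skeletal muscle markers, Myh4 had 0 counts, Myod1 and Myog 1 count each and Myh1 22 counts in Mst1-TG and 2 in WT, while Tnnt3 rose to 2.80 ± 0.755 CPM in Mst1-TG, against 0.404 ± 0.206 CPM in WT (log2 2.77 ± 0.34, edgeR adjusted p = 2.4e-05).

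A basement membrane is a thin sheet of laminin and collagen IV networks that surrounds each cardiomyocyte, capillary and smooth muscle cell. Nidogens (Nid1, Nid2) bind laminin and collagen IV and bridge the networks, and perlecan (Hspg2) carries heparan sulfate chains that hold growth factors; mice without perlecan have weak myocardial walls. Fras1 and Frem2 are anchored in the cell membrane and Frem1 is secreted, and together they form a complex beneath epithelial basement membranes whose loss gives skin blistering in mouse embryos and Fraser syndrome or related disorders in people. Svep1 is a large secreted protein that binds the integrin made of Itga9 and Itgb1 and is needed for lymphatic vessel remodelling in mice. Nephronectin (Npnt) is a ligand of the integrin made of Itga8 and Itgb1 and is known from mouse kidney development.

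The genes lie at separate places in GRCm38 (GENCODE M21). Frem1 spans chr4:82897920-83052339, Svep1 spans chr4:58042442-58206859 and Hspg2 spans chr4:137468769-137570630. Frem2 spans chr3:53513938-53657355 and Npnt spans chr3:132881745-132950291, while Fras1 spans chr5:96373955-96784728, Nid1 spans chr13:13437551-13512269 and Nid2 spans chr14:19751265-19811787. The promoters of the genes with the largest differences, and that of Frem2 as the family member with the smallest, are shown because the series is about the Hippo pathway, whose TEAD factors bind the element GGAATG. Each window runs from 250 bases before to 50 bases after a RefSeq start (GRCm38.p6, minus strand, printed 5′ to 3′), and capitals mark GGAATG or its reverse complement CATTCC. For Frem1 both annotated starts are given, the first at chr4:83052117-83052416 and the second at chr4:83021053-83021352; the Svep1 window is chr4:58206547-58206846 and the Frem2 window chr3:53657306-53657605.
Frem1, first window: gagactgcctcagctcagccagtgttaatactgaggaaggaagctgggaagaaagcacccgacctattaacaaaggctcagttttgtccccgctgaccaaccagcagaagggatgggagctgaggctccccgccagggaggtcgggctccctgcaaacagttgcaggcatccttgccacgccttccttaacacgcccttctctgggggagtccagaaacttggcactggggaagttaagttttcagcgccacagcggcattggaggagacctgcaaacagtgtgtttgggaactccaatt
Frem1, second window: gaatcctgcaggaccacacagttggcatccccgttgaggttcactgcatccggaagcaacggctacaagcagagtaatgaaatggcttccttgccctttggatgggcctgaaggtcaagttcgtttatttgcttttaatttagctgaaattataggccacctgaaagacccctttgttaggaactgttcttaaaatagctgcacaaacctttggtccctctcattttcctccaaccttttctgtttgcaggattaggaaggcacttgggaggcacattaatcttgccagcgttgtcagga
Svep1: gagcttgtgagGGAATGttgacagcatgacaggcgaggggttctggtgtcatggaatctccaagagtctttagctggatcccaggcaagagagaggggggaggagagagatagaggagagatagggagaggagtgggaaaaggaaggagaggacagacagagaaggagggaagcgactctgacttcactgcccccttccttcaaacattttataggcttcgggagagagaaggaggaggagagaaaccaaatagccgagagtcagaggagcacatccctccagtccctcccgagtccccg
Frem2: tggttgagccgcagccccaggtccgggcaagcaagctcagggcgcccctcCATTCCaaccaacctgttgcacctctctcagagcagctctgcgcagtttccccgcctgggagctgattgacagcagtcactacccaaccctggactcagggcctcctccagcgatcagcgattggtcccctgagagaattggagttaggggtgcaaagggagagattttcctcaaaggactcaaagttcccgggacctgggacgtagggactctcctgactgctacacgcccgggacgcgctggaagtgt

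The element begins 239 bases before the RefSeq start in Svep1 and 200 bases before that in Frem2, and neither Frem1 window holds it. The whole Svep1 window lies inside the GENCODE span of the gene, which on the minus strand starts at chr4:58206859. By that annotation the Svep1 match is within the gene and not upstream of it. Of the 6 members with a window (Frem1, Frem2, Svep1, Nid1, Hspg2 and Npnt), 3 hold it on one strand or the other, the third being Nid1 at 165 bases before the start. The element is found in 16.6% of all genes with such a window, and in 14.7% of all windows of this length. Frem1, with the largest difference, had no match, and Frem2, with one of the smaller differences, had one. A match is a string of letters and not a measured binding site.

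All 8 genes were higher in Mst1-TG than in WT and passed an edgeR adjusted p below 0.05 in the fit over all genes (called, hereafter), where 21.2% of genes were called higher and 21.1% lower. In 7 of the 8 the lowest Mst1-TG library lay above the highest WT library, which held for 20.2% of all genes tested. Since the members were selected on this contrast, these shares are not a result about them. The size of the difference ran over a wide range, from 30.9-fold for Frem1 and 5.11-fold for Svep1 down to 1.28-fold for Hspg2. The median log2 fold change of the 8 was 0.57, against 0.01 over all genes tested. Fold changes are Mst1-TG over WT throughout.

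**Figure D1:**
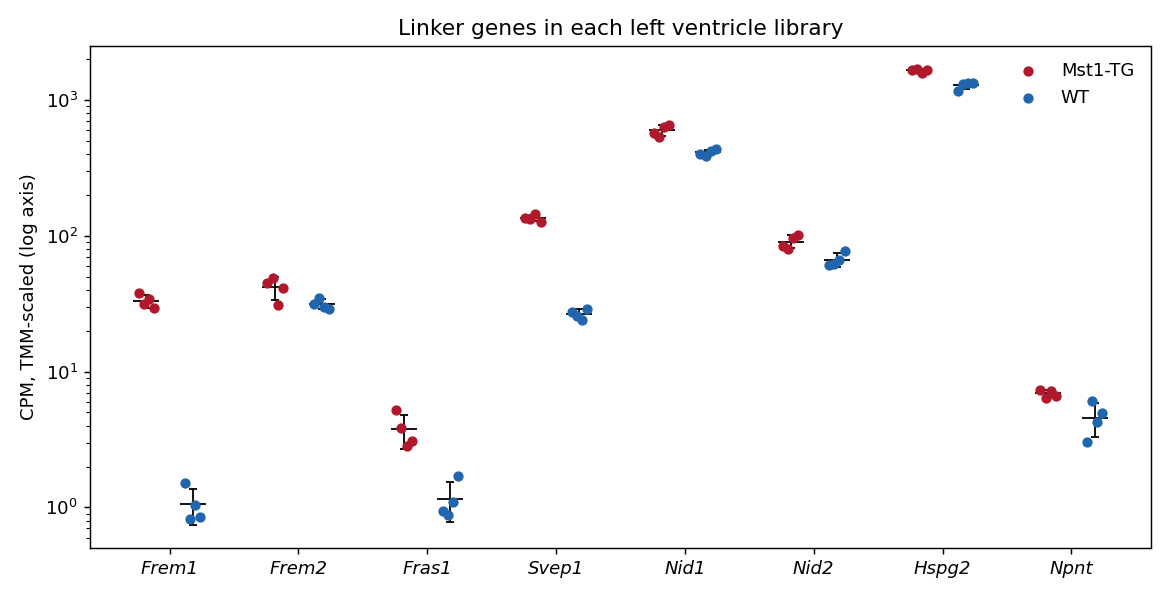
CPM (TMM-scaled, log axis) of the 8 genes in each library, Mst1-TG in red and WT in blue, with the mean and SD of 4 libraries in black. Frem1 at 29.6 to 37.7 CPM in Mst1-TG stands far above 0.827 to 1.51 CPM in WT, while the libraries overlap for Frem2 alone.

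Frem1, the secreted member of the FRAS/FREM complex, was close to the detection limit in WT. It had 37.7, 31.3, 34.0 and 29.6 CPM in Mst1-TG 1 to 4, against 1.51, 0.827, 1.05 and 0.857 CPM in WT 1 to 4. The WT values rest on 87 counts over 4 libraries and the Mst1-TG values on 3197 counts. Every Mst1-TG library was far above every WT library, with a log2 fold change of 4.95 ± 0.16 (SE), rank 24 of 15314 genes by size of rise. Its coefficient of variation was 10.7% in Mst1-TG and 29.8% in WT.

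Fras1, the membrane-anchored founder of the family, had the lowest level per kilobase of the 8 in both groups, although its WT libraries overlapped those of Frem1 on that scale. In CPM it had 5.23, 3.84, 2.85 and 3.09 CPM in Mst1-TG libraries 1 to 4, and 0.944, 0.879, 1.09 and 1.71 CPM in WT libraries 1 to 4. The groups did not overlap, although Mst1-TG 1 was well above the other transgenic libraries and WT 4 above the other WT ones. The log2 fold change was 1.69 ± 0.27 (SE), on 362 counts in Mst1-TG and 94 in WT.

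Frem2, the other membrane-anchored member, had 45.3, 49.3, 30.9 and 41.1 CPM in Mst1-TG libraries 1 to 4, and 31.6, 35.1, 30.1 and 28.9 CPM in WT libraries 1 to 4. Mst1-TG 3 lay inside the WT range, so the groups overlapped. The log2 fold change was 0.41 ± 0.13 (SE), and the call of Frem2 was lost without Mst1-TG 1 (0.36), Mst1-TG 2 (0.32), WT 3 (0.38) or WT 4 (0.37).

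The make-up of the FRAS/FREM transcripts followed from these values and is given as a description. Per kilobase of the longest coding transcript, Frem1 made up 49.4%, 43.3%, 56.6% and 46.4% of the summed Frem1, Frem2 and Fras1 level in Mst1-TG libraries 1 to 4, against 5.62%, 2.86%, 4.13% and 3.48% in WT libraries 1 to 4. Frem2 held 40.4% to 53.5% of that sum in Mst1-TG and 92.2% to 95.3% in WT. The share of Fras1 was 3.33% ± 0.589 in Mst1-TG and 2.73% ± 1.07 in WT (SD, n = 4 each), with overlapping libraries. The summed level was 7.03 ± 0.783 CPM per kb in Mst1-TG and 2.73 ± 0.196 CPM per kb in WT. In these terms Frem1 and Frem2 were about equally abundant in Mst1-TG, at 3.42 ± 0.366 and 3.37 ± 0.639 CPM per kb, with overlapping libraries.

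**Figure D2:**
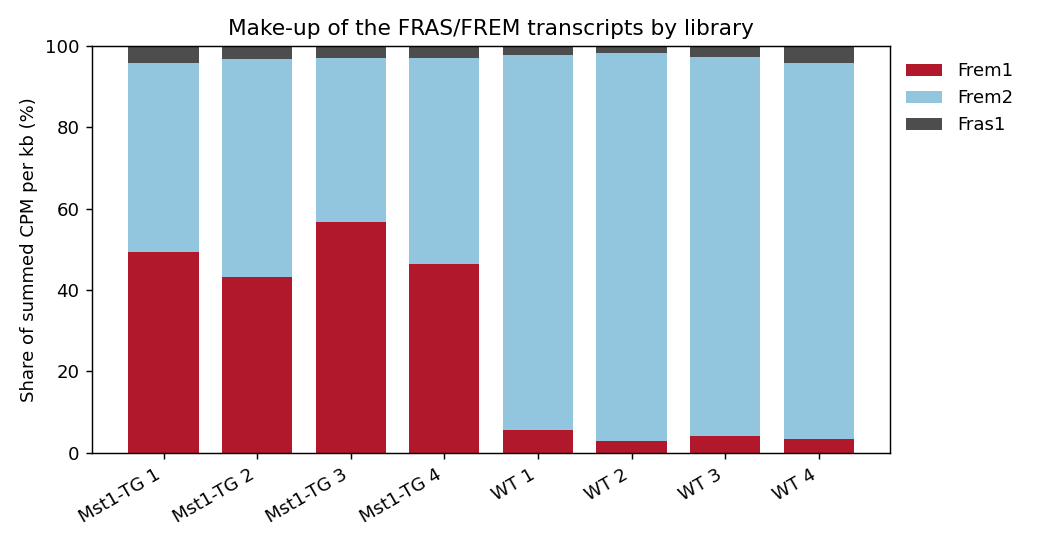
Share (%) of Frem1, Frem2 and Fras1 in their summed CPM per kb of transcript, 1 bar per library, the 4 Mst1-TG libraries on the left. Frem1 takes 43.3% to 56.6% in Mst1-TG and 2.86% to 5.62% in WT, and Frem2 fills nearly all of the WT bars.

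The family members are distant relatives in sequence. In the longest GENCODE translations, Frem1 (2191 residues) and Frem2 (3160 residues) shared 33.3% of aligned residues, Frem1 and Fras1 (4010 residues) 29.0%, and Frem2 and Fras1 32.7%. Of the 14073 different stretches of 31 bases in Frem1 transcripts, the default word length of kallisto, 28 also occurred in transcripts of other genes (0.199%). Those other genes numbered 2795. For Frem2, Hspg2 and Npnt there were none, and 0.747% were shared for Fras1, 4.05% for Nid1 and 7.87% for Nid2.

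Svep1 had the second largest difference and the tightest replicates among the genes with a large one. Its level was 135, 134, 144 and 127 CPM in Mst1-TG libraries 1 to 4, and 27.2, 25.7, 23.8 and 29.1 CPM in WT libraries 1 to 4. No library came near the other group, and the log2 fold change was 2.35 ± 0.07 (SE). Of its 31-base stretches 14.5% also occur in other genes, nearly all of them in Gm26889, a long non-coding RNA gene on the opposite strand with which it shares 2244 exonic bases. Gm26889 was not analysed here, and how reads in that stretch were divided is not given in the sources used here.

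The nidogens differed by less. Nid1 had 574, 532, 629 and 652 CPM in Mst1-TG libraries 1 to 4, against 401, 388, 420.0 and 433 CPM in WT libraries 1 to 4. Nid2 had 84.8, 79.9, 96.7 and 101.02 CPM in Mst1-TG libraries 1 to 4, against 61.0, 62.1, 66.3 and 77.8 CPM in WT libraries 1 to 4. Neither gene overlapped between groups, but for Nid2 the gap between Mst1-TG 2 (79.9 CPM) and WT 4 (77.8 CPM) was small.

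The log2 fold changes of the nidogens were 0.54 ± 0.08 for Nid1 and 0.44 ± 0.09 for Nid2 (SE). Per kilobase, Nid1 exceeded Nid2 by a ratio of 5.28 ± 0.114 in Mst1-TG and 4.95 ± 0.343 in WT (SD, n = 4 each), with overlapping libraries. The proteins share 48.0% of aligned residues. Exons of Nid2 overlap those of Rtraf on the opposite strand by 437 bases, and Rtraf itself was at 67.1 ± 3.15 CPM in Mst1-TG and 69.9 ± 3.43 CPM in WT (log2 fold change -0.06 ± 0.06, edgeR adjusted p = 0.467).

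Hspg2, the perlecan gene, was the most abundant member in CPM. It had the smallest fold change in the main fit, which the errors do not separate from those of Frem2 and Nid2. It had 1659, 1694, 1582 and 1660 CPM in Mst1-TG libraries 1 to 4, and 1168, 1313, 1323 and 1341 CPM in WT libraries 1 to 4. The groups did not overlap and the log2 fold change was 0.36 ± 0.07 (SE). The mean was 1649 ± 47.3 CPM in Mst1-TG and 1286 ± 80.0 CPM in WT (SD, n = 4 each).

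Npnt, the integrin ligand, had 7.38, 6.43, 7.18 and 6.65 CPM in Mst1-TG libraries 1 to 4, and 3.02, 6.10, 4.23 and 4.94 CPM in WT libraries 1 to 4. WT 2 nearly reached the transgenic libraries, and the coefficient of variation was 6.39% in Mst1-TG and 28.2% in WT. The log2 fold change was 0.60 ± 0.18 (SE), and without WT 3 the call was lost (0.56).

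**Figure D3:**
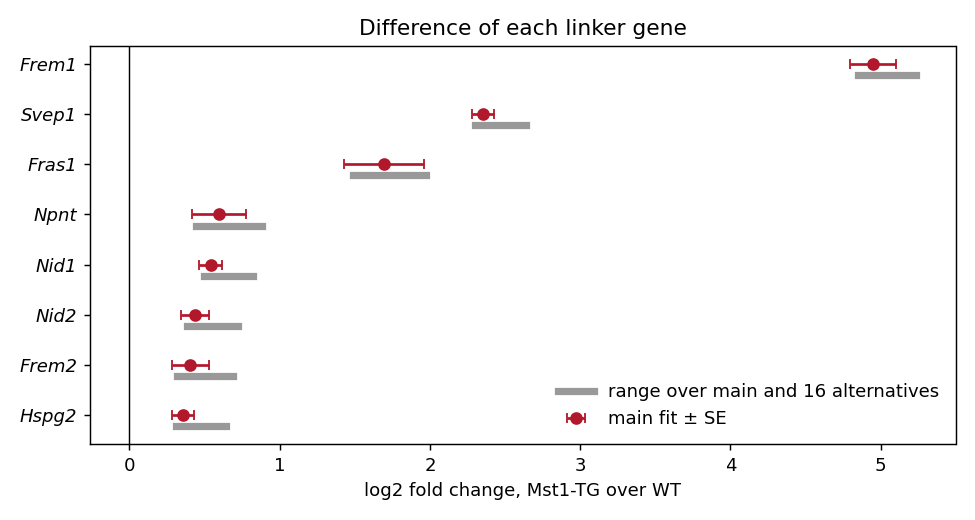
Log2 fold change (Mst1-TG over WT) of each gene with its SE in red, and in grey the lowest and highest value over the main fit and all alternative settings. Frem1 runs from 4.85 to 5.24 and Svep1 from 2.30 to 2.64, and no gene crosses 0.

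Ordered by level per kilobase in Mst1-TG, Hspg2 came first (116 ± 3.34 CPM per kb), then Nid1 (98.0 ± 8.93), Nid2 (18.6 ± 2.03), Svep1 (11.6 ± 0.611), Frem1, Frem2, Npnt (1.496 ± 0.0956) and Fras1 (0.237 ± 0.0675). In WT the order was Hspg2 (90.7 ± 5.64 CPM per kb), Nid1 (67.4 ± 3.30), Nid2 (13.7 ± 1.57), Frem2 (2.55 ± 0.217), Svep1 (2.27 ± 0.194), Npnt (0.990 ± 0.279), Frem1 (0.109 ± 0.0326) and Fras1 (0.0730 ± 0.0241). Neighbours in this order did not overlap over libraries, with the exception of Frem1 and Frem2 in Mst1-TG, and of Frem2 and Svep1 and of Frem1 and Fras1 in WT. Frem1 stood at position 5 in Mst1-TG and 7 in WT, and Svep1 at position 4 in Mst1-TG and 5 in WT. By coding length in place of transcript length, Nid1 came before Hspg2 in both groups and Npnt before Svep1 in WT. The summed level of the 8 was 253 ± 8.60 CPM per kb in Mst1-TG and 178 ± 9.07 CPM per kb in WT, of which Hspg2 and Nid1 together made up most.

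One short peptide was looked for in the encoded proteins: RGD, the tripeptide that several integrins recognise. Frem1, Fras1, Nid1, Nid2, Hspg2 and Npnt each hold it 1 time, and Frem2 and Svep1 do not. It occurs in 7.25% of 21536 GENCODE genes with a translation and in 22.02% of the 2352 with at least 1000 residues. Whether these stretches are exposed or used was not tested.

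Genes with the most similar profile were sought by the root-mean-square difference of log2 CPM over the 8 libraries after centring each gene. These log2 CPM include a prior count of 2, which shrinks the differences of genes with few counts, such as Cxcr6 in WT. Nearest to Frem1 were the chemokine receptor Cxcr6 (root-mean-square difference 0.157), atrial natriuretic peptide Nppa (0.246) and the triad protein Sypl2 (0.305). Cxcr6 was at 7.46 ± 0.854 CPM in Mst1-TG and 0.159 ± 0.0566 CPM in WT, and Nppa at 6084 ± 1079 CPM in Mst1-TG and 218 ± 24.3 CPM in WT (SD, n = 4 each). The fitted log2 fold change was 5.50 for Cxcr6 and 4.80 for Nppa, against 4.95 for Frem1. Nearest to Svep1 were the activin-binding protein Fstl3 (0.116), the matricellular protein Postn (0.146) and the steroidogenic cholesterol carrier Star (0.148). Nearest to Frem2 came N-cadherin, Cdh2 (0.0745), the junction protein that joins cardiomyocytes at the intercalated disc, at 305 ± 49.7 CPM in Mst1-TG and 228 ± 11.2 CPM in WT. Among the members themselves, Nid1 and Nid2 were the closest pair (0.0817), followed by Nid2 and Hspg2 (0.143) and Nid1 and Hspg2 (0.144), whereas Frem1 and Hspg2 were the farthest apart (2.28). The measure includes the group difference of each gene and carries no test.

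Of 32 tested protein-coding neighbours, 2 on each side of each member, 8 were higher, 2 lower and 22 were not called, with a median log2 fold change of 0.04. Over all genes tested, 21.2% were called higher and 21.1% lower. Neighbours lay up to 857 kb from their member. None of the 4 neighbours of Frem1 was called: Zdhhc21 was at 0.22 ± 0.09, Nfib at 0.11 ± 0.06, Ttc39b at 0.10 ± 0.10 and Snapc3 at 0.10 ± 0.09 (log2 ± SE; edgeR adjusted p = 0.063, 0.137, 0.471 and 0.440). Beside Svep1, the lysophosphatidic acid receptor Lpar1 was at 41.8 ± 3.48 CPM in Mst1-TG and 16.7 ± 1.17 CPM in WT (log2 1.32 ± 0.08) and Akap2 rose by 0.73 ± 0.08, while Ecpas fell by 0.37 ± 0.08 (log2) and Txn1 was not called (0.05 ± 0.05). On one side of Frem2, at a distance of 704 kb, lies Postn, which rose by 2.52 ± 0.10 (log2).

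Partners of the members were examined through 7 lists of 91 different genes. Of 87 that were tested 39 rose, 11 fell and 37 were not called at an edgeR adjusted p below 0.05 over all genes, with a median log2 fold change of 0.29. Over all genes the same shares were 21.2% higher and 21.1% lower and the median was 0.01. The lists were chosen with earlier results of these data known, so setting their counts beside these shares is a description and not a test. With library totals as the only scaling, which moves the median of all genes to 0.29, 62 were called higher and 7 lower.

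Of the FRAS/FREM partners, 5 of 9 tested rose, 1 fell and 3 were not called, with a median log2 fold change of 0.38. Those that rose were Grip1, Col7a1 and the integrin chains Itgav, Itgb1 and Itga3, and these chains are also in other lists. With a stricter filter (mean of at least 50 counts per library), which drops genes as low as Grip1 and Col7a1, 3 were called higher. Grip1, the scaffold that brings Fras1 and Frem2 to the cell surface in mice, rose to 2.57 ± 0.506 CPM in Mst1-TG, against 0.613 ± 0.138 CPM in WT (log2 2.06 ± 0.26, edgeR adjusted p = 3.1e-05). Its relative Grip2 fell to 29.9 ± 2.42 CPM in Mst1-TG, against 44.1 ± 2.84 CPM in WT (-0.56 ± 0.08, adjusted p = 4.8e-05). Col7a1, the collagen of anchoring fibrils, rose by 2.21 ± 0.38 to 2.52 ± 1.10 CPM in Mst1-TG, against 0.541 ± 0.179 CPM in WT. The family's remaining member, Frem3, had 4 counts in Mst1-TG and 1 in WT, and the basement membrane protein Vwa2, which binds the complex, had 0 counts in all 8 libraries. Hemicentin 1 (Hmcn1) was at 69.5 ± 12.3 CPM in Mst1-TG and 56.1 ± 7.64 CPM in WT and was not called (adjusted p = 0.0866), but it was called higher with the replicate block (0.30, adjusted p = 0.0074), without Mst1-TG 1 (0.41), with no filter on low counts (0.31) and with library totals only (0.59). Fibulin 1 (Fbln1) was at 81.7 ± 10.4 CPM in Mst1-TG and 94.3 ± 8.61 CPM in WT and was not called (adjusted p = 0.0968), but it was called lower without Mst1-TG 1 (-0.26) and with no filter (-0.20), where 2 genes of the list were lower.

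Partners of Svep1 moved in both directions: 2 of 8 rose, 2 fell and 4 were not called (median log2 fold change -0.12). Its integrin receptor chains Itga9 and Itgb1 rose by 0.53 ± 0.11 and 0.38 ± 0.07 on the log2 scale (edgeR adjusted p = 0.0014 and 5.3e-04). Itga9 was at 171 ± 23.4 CPM in Mst1-TG and 119 ± 14.2 CPM in WT. Angpt1, the ligand that activates the endothelial receptor Tek, fell to 5.90 ± 1.11 CPM in Mst1-TG, against 19.99 ± 2.13 CPM in WT (log2 -1.76 ± 0.13, adjusted p = 3.2e-07). Tie1, the co-receptor, was called lower (-0.35 ± 0.12, adjusted p = 0.0349), but lost the call without Mst1-TG 1, Mst1-TG 2, WT 1, WT 3 or WT 4 (-0.25 to -0.35) and with library totals only (-0.07); 1 gene of the list was then called lower in each case, 4 without Mst1-TG 3, 3 without WT 2 and 3 with no filter on low counts. Tek (-0.24 ± 0.11, adjusted p = 0.0863), Angpt2 (-0.32 ± 0.13, 0.0701), Piezo1 (0.01 ± 0.07, 0.906) and Pear1 (0.08 ± 0.07, 0.438) were not called. Tek was called lower with no filter (-0.24), without Mst1-TG 3 (-0.31) and without WT 2 (-0.31), and Angpt2 without Mst1-TG 3 (-0.41). With library totals only, Piezo1 (0.30) and Pear1 (0.36) were called higher, which made 4 of 8.

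In the list for nephronectin, 6 of 9 tested genes rose and the other 3 were not called, with a median of 0.72. These counts include Bmp4, which rose by 1.04 ± 0.14 (log2), and Gdnf, which was not called. Both are named here because they are neither relatives nor receptors of nephronectin. Itga8, the chain that gives nephronectin its main receptor, was at 13.6 ± 1.90 CPM in Mst1-TG and 11.5 ± 0.484 CPM in WT, which was not called (edgeR adjusted p = 0.102) except with library totals only (adjusted p = 0.0022). Of the other integrin chains in the list, Itgb3 rose by 1.42 ± 0.13, Itga5 by 1.14 ± 0.09, Itgav by 1.01 ± 0.07 and Itgb5 by 0.72 ± 0.08 on the log2 scale. Itgb3 was at 20.4 ± 2.14 CPM in Mst1-TG and 7.62 ± 1.29 CPM in WT. Egfl6, the closest relative of Npnt in the list with 41.8% identical aligned residues, had 13 counts in Mst1-TG and 20 in WT and was not tested.

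The nidogens and perlecan bind laminins and collagens of the basement membrane core. In the list of core genes 12 of 18 genes rose, 1 fell and 5 were not called, with a median log2 fold change of 0.53. The laminin chain Lama2, the main alpha chain around muscle fibres, rose to 410 ± 13.8 CPM in Mst1-TG, against 217 ± 6.17 CPM in WT (log2 0.92 ± 0.06, edgeR adjusted p = 1.2e-07). Lamc1, the laminin chain that nidogens bind, rose by 0.75 ± 0.07 and Col4a5 by 0.91 ± 0.08. The gene that fell was the laminin chain Lamb3, at 8.24 ± 2.16 CPM in Mst1-TG, against 19.5 ± 0.548 CPM in WT (-1.25 ± 0.15, edgeR adjusted p = 2.3e-05). Collagen XVIII (Col18a1) rose by 0.58 ± 0.11 to 71.3 ± 11.0 CPM in Mst1-TG, against 47.8 ± 5.95 CPM in WT. Agrin (Agrn), the other large heparan sulfate proteoglycan of the basement membrane, was at 123.7 ± 14.6 CPM in Mst1-TG and 124.5 ± 9.05 CPM in WT (log2 -0.01 ± 0.09, adjusted p = 0.946), whereas with library totals only its value was 0.28 (adjusted p = 0.0257).

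The associated proteins split: 7 of 17 rose, 5 fell and 5 were not called, with a median of -0.14. Fibronectin (Fn1) rose by 1.35 ± 0.11, Fbln2, a fibulin that binds nidogens and perlecan, by 1.29 ± 0.11 and Tgfbi by 0.76 ± 0.09, while Egflam, the ligand of dystroglycan known as pikachurin, fell by 1.06 ± 0.12 on the log2 scale. Among 14 receptors 5 rose, 2 fell and 7 were not called (median 0.18), and with library totals only 10 were higher and 0 lower. Syndecan 2 (Sdc2) rose by 1.06 ± 0.06, and the laminin-binding chains Itga7 and Itga3 by 0.44 ± 0.09 and 0.40 ± 0.09. The 2 receptors that fell, named here for that reason, were Itga6, another laminin-binding chain, and Sgca. Their log2 fold changes were -0.23 ± 0.06 and -0.47 ± 0.11 (edgeR adjusted p = 0.0116 and 0.0058). Dystroglycan (Dag1), the laminin and perlecan receptor of muscle, was at 577 ± 60.5 CPM in Mst1-TG and 523 ± 29.2 CPM in WT and was not called (0.14 ± 0.08, edgeR adjusted p = 0.191) except with library totals only (0.43, adjusted p = 3.3e-04).

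Enzymes that build or trim the heparan sulfate chains of perlecan rose in 7 of 20 cases and the other 13 were not called, with a median of 0.16; library totals only gave 16 higher, and 1 was lower without Mst1-TG 2. Sulf1, which removes sulfate groups outside the cell, rose to 135 ± 10.05 CPM in Mst1-TG, against 49.0 ± 2.91 CPM in WT (log2 1.46 ± 0.07, edgeR adjusted p = 1.4e-08). Its relative Sulf2 rose by 0.48 ± 0.07, the sulfotransferase Hs2st1 by 0.61 ± 0.09 and the chain polymerase Ext1 by 0.39 ± 0.06. The heparanase gene Hpse, chosen for mention after its values were seen, was at 1.84 ± 0.155 CPM in Mst1-TG and 1.14 ± 0.352 CPM in WT; it was called at an edgeR adjusted p of 0.0466 but missed the threshold in 8 alternatives.

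**Figure D4:**
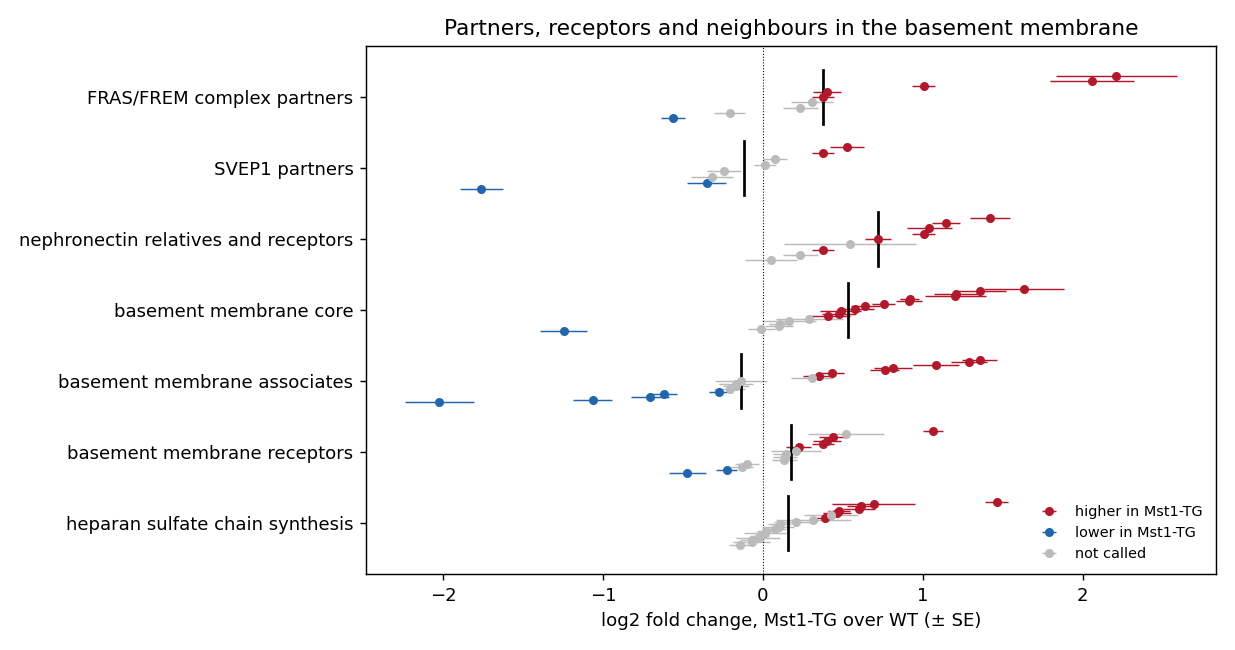
Log2 fold change (Mst1-TG over WT, ± SE) of each tested partner gene by list, red where called higher in Mst1-TG, blue where called lower and grey where not called, with the median of the list as a black line. Medians run from 0.72 for the nephronectin list to -0.14 for the basement membrane associates.

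Marker lists of cell types differed in direction. All 8 fibroblast markers rose (7 or 8 when single libraries were left out), with a median log2 fold change of 1.17 and a summed level of 4745 to 6310 CPM in Mst1-TG, against 1822 to 2234 CPM in WT. Single fibroblast markers ran from 0.27 ± 0.10 for Dpt to 2.52 ± 0.10 for Postn. The next highest after Postn was Col1a2 at 1.67 ± 0.13, below Svep1 and close to Fras1. Frem1 lay above all of these markers. Hspg2, Frem2, Nid2, Nid1 and Npnt, at 0.36 to 0.60 (log2), lay below each of them but Dpt. Of the 6 cardiomyocyte markers 4 fell and 2 were not called (summed level 23413 to 31981 CPM in Mst1-TG and 33416 to 40521 CPM in WT), whereas with library totals only 2 were lower and 1 higher. Of the 6 blood endothelial markers 3 fell and 3 were not called (1149 to 1672 CPM in Mst1-TG and 1547 to 1948 CPM in WT). That endothelial count was 1 without Mst1-TG 1, Mst1-TG 2, WT 1, WT 3 or WT 4, 4 without Mst1-TG 3 and 0 with library totals only.

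The ranges of the remaining lists overlapped between groups, apart from the skeletal muscle markers given above. Epicardial markers summed to 25.1 to 44.8 CPM in Mst1-TG and 19.9 to 30.5 CPM in WT, with 1 of 6 called higher (2 without Mst1-TG 1, without Mst1-TG 2, with no filter or with library totals only). Endocardial markers summed to 192 to 241 CPM in Mst1-TG and 194 to 228 CPM in WT, with 0 of 4 called by edgeR or by DESeq2 (0 at an unadjusted p below 0.05; 1 of 4 without Mst1-TG 1 or with no filter on low counts, and 2 of 4 with library totals only). Lymphatic endothelial markers, of interest for Svep1, summed to 164 to 206 CPM in Mst1-TG and 167 to 197 CPM in WT, with 3 of 6 called higher and 2 lower (1 lower without Mst1-TG 2 or WT 2, and 0 with library totals only). The ranges were 1081 to 1357 CPM in Mst1-TG and 1173 to 1463 CPM in WT for mural markers, and 94.6 to 121 CPM in Mst1-TG and 85.1 to 109 CPM in WT for leukocyte markers, of which 0 of 5 were called by edgeR or DESeq2 (0 at an unadjusted p below 0.05; 1 without WT 4 and 3 with library totals only). Of the 6 mural markers 1 was called higher and 2 lower (3 higher and 0 lower with library totals only). Schwann cell markers summed to 17.5 to 25.1 CPM in Mst1-TG and 18.4 to 20.3 CPM in WT. Of the 5 that were tested, 1 was called higher and 1 lower. The lower Schwann count was 0 with library totals only, with the replicate block, or without Mst1-TG 2, Mst1-TG 4, WT 2 or WT 3. It was 2 without Mst1-TG 1. Of the 4 tested atrial markers 3 were lower and 1 was higher (summed 109.6 to 188 CPM in Mst1-TG and 120 to 165 CPM in WT), and Bmp10 had no count in any library. The count of lower atrial markers was 0 without Mst1-TG 3 or with no filter, 1 without Mst1-TG 2, Mst1-TG 4, WT 1, WT 2 or WT 4 or with library totals only, and 2 without WT 3. In bulk tissue more cells of a type cannot be told apart from more RNA per cell, and the part of these markers in the differences of the 8 genes was not tested.

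**Figure D5:**
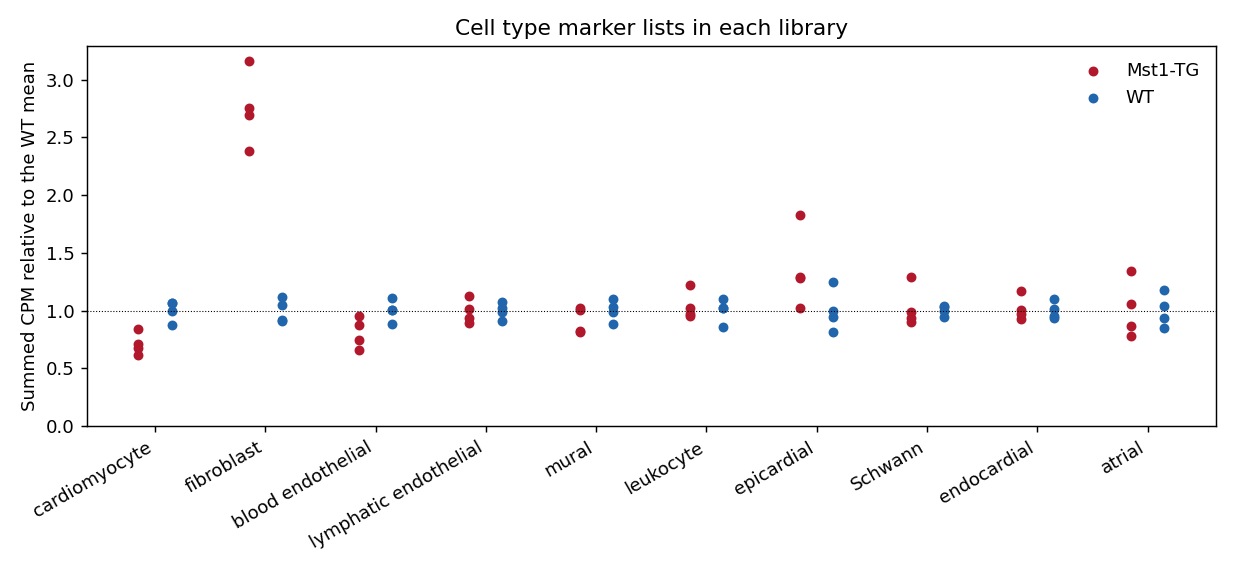
Summed CPM of each marker list but skeletal muscle in each library, relative to the WT mean of that list, Mst1-TG in red and WT in blue. The fibroblast list stands apart, at 2.75 times the WT mean on average in Mst1-TG, and the cardiomyocyte list lies at 0.711 times.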

How the data were processed

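RNA-seq of left ventricle was measured in 4 Mst1-TG and 4 WT libraries. The authors deposited 1 table of estimated counts per gene, whole numbers that are not scaled for library size. The submitters' processing notes name bcl2fastq 2.19.1.403 and kallisto 0.46.0; build, annotation and strand setting: not given in the sources used here. Per the labels' protocols, RNA was depleted of ribosomal RNA and made into directional libraries. Of the gene identifiers 55144 of 55385 match GENCODE M21 (GRCm38) without version, which gave positions and lengths.

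edgeR 4.0.16 under R 4.3.3 was used for all tests (filterByExpr with a minimum count of 10 and a minimum total of 15, TMM scaling, robust quasi-likelihood F test, Benjamini-Hochberg adjustment over 15314 genes, threshold 0.05); the method was tested on simulated data. SE is the log2 fold change divided by the root of F. CPM are TMM-scaled; levels per kb divide CPM by the longest coding transcript. The coefficient of biological variation was 11.4% and a log2 fold change had a median SE of 0.111. Counts of replicates differed beyond sampling noise, with a chi-square of 7.76 to 23.6 per degree of freedom. The labels do not say that each sample is a separate animal, and p-values reflect only how far these samples spread, which may be technical.

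Alternatives were DESeq2 1.42.0, limma 3.58.1 (voom), other scalings and filters, a replicate block and leaving out each library. Members and gene lists were chosen with earlier results of these data known. Some genes are not reported here and were left out of the lists. Named genes are the members, Stk4, the 3 nearest profiles of each member, chromosomal neighbours, up to 4 genes of each partner list with the smallest p, and a fixed set of partners whatever their values; exceptions are stated as such, and not every gene that qualifies is described. Protein identity came from global alignment (BLOSUM62, Biopython 1.88) of GENCODE translations, and promoter sequences are from RefSeq (GRCm38.p6), where 6 of the 8 members matched by symbol.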

Additional observations from a re-analysis of the deposited data

Results flagged for a closer look

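Hspg2 in the WT 1 library, at 1168 CPM, lay far from the other WT libraries at 1313, 1323 and 1341 CPM. It was the only group of 4 so far from even spacing among 16 tested (8 genes in 2 groups), and chance alone marks about 1 group in 20. Without WT 1 the log2 fold change of Hspg2 was 0.31.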

How the results depend on the processing

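Of the 8 members, 8 were called higher and 0 lower in each of the alternatives that kept all libraries, and 6 to 8 were called higher when single libraries were left out; the calls lost were those of Frem2 and Npnt. With library totals as the only scaling, 7409 genes were called higher and 1592 lower over the whole table, and 62 and 7 of the partner genes; the direction then turned positive for Agrn (0.28), B3gat3 (0.26), Itga6 (0.059), Ndst1 (0.22) and Ntn1 (0.0115). TMM factors, which that setting leaves out, were 1.08 to 1.13 in Mst1-TG and 0.891 to 0.937 in WT. The other alternatives gave 2799 to 3536 higher and 2888 to 3384 lower genes over the whole table, and 36 to 40 higher and 10 to 13 lower partner genes. Of 87 partner genes 51 kept direction and side of the threshold in each of the 16 alternatives that tested them. With the replicate block, 3064 genes were higher and 3123 lower, with 8 members and 38 partner genes higher. Replicates with equal numbers are not stated to be paired, and their correlations of -0.14 to 0.07 do not show a pairing. Frem1 and Fras1 in WT rest on 87 and 94 counts, which limits their fold changes, and Frem3 and Egfl6 were too low to test.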

Other observations

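Hmcn2, a hemicentin of the extracellular matrix that was picked after its values were seen, fell to 15.0 ± 5.06 CPM in Mst1-TG, against 60.7 ± 7.21 CPM in WT (log2 -2.02 ± 0.22, edgeR adjusted p = 7.2e-05).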
